A study of Homo sapiens with 3 samples.

Results

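The RNA that normal mouse IgG beads carried down from MDA-MB-231 lysate was compared with the Input RNA of the same experiment. The comparison took 2 of the 3 libraries in the series and all 334 lncRNA transcripts listed for them. The list itself depended on level, as described below, and calls of higher and lower transcripts used a minimum level. Each transcript has a read count and an FPKM, a read number per kilobase of transcript scaled to the number of sequenced fragments. Of the 334 transcripts, 117 had reads in both libraries, 174 had reads in Input alone, 33 had reads in IgG alone and 10 had reads in neither.

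RNA immunoprecipitation retrieves RNA with an antibody bound to beads, and IgG of no particular target gives the background that beads and antibody hold on their own. Abundant RNAs in stable protein particles, such as ribosomal RNA, the 7SK RNA that restrains the elongation factor P-TEFb, and the U3 snoRNA of ribosome biogenesis, are known to appear in such precipitates. Host genes of small nucleolar RNAs (snoRNAs) are spliced lncRNAs whose introns carry the snoRNAs, and many of them begin with a tract of pyrimidines at the start of the transcript.

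All 3 libraries came from MDA-MB-231, an established triple negative breast cancer line labelled p53-mutant, transfected with a plasmid for Flag-tagged FAK (focal adhesion kinase), so the Input and IgG libraries carry that protein too. The IgG library held RNA retrieved with normal mouse IgG on Protein A/G beads, the Flag-FAK library RNA retrieved with an anti-FLAG antibody, and Input was labelled as 10% of the RNA. Each condition had 1 library, so the values below come without an SD or a p-value and each fold describes these libraries. The tables hold lncRNAs only, so the identity of the line could not be checked against its protein-coding markers.

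Reads on the 334 transcripts summed to 2056854 in Input and 109658 in IgG, and to 50624 and 8777 outside the ribosomal DNA of chromosome 21. The depth of the libraries beyond these lncRNAs is unknown. Over 64 transcripts with at least 5 reads in both libraries, the FPKM per read in IgG was 1.08 times that in Input (median, range 0.893 to 1.18), so the deposited FPKM set the libraries side by side at nearly equal totals of whatever was counted. Intervals given with a ratio are exact at the 95% level (Clopper-Pearson) and were carried from reads to the FPKM scale. Where 1 library had 0 reads, the fold given as "at least" sets 3 reads there against the reads of the other library and leaves out the counting error of the latter. Over 99 transcripts with 0 reads in 1 library and 10 or more in the other, the limit of the two-sided interval was 67.2% to 81.3% of that fold, and counts of intervals below or above 1 use the two-sided interval. Both describe counting error alone, because PCR copies are not separate molecules.

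Most listed lncRNAs were lower in the IgG precipitate than in Input. Of 321 transcripts with 0.5 FPKM or more in either library, 253 (78.8%) had an IgG to Input ratio below 0.5, 43 (13.4%) had a ratio above 2 and 25 lay between, with 0.1 FPKM added to both sides. For 211 of the 253 the whole counting interval was under 1, and for 21 of the 43 it was over 1. Among 116 of these transcripts with reads in both libraries, the median ratio was 0.264, with quartiles of 0.107 and 0.639, and 22 had a ratio above 1.

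**Figure D1:**
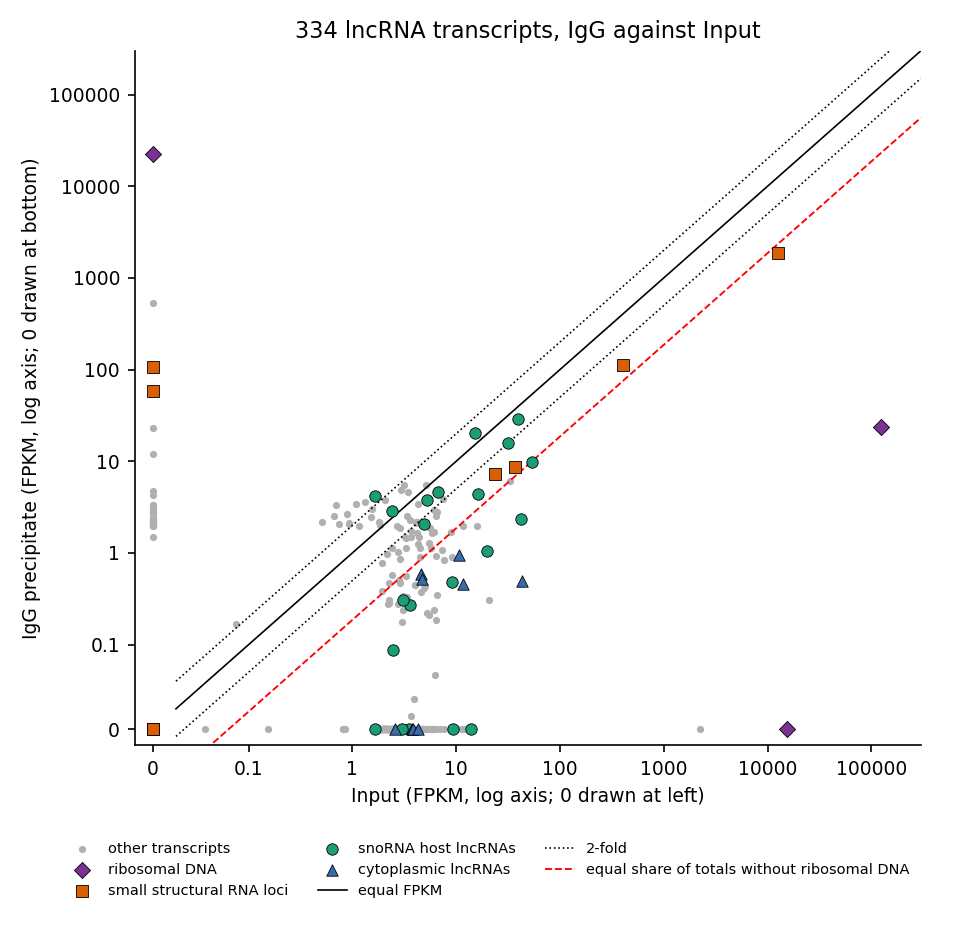
Each point is 1 of the 334 transcripts, with its FPKM in Input on the horizontal axis and in IgG on the vertical axis, both logarithmic with 0 drawn at the edge. The solid line marks equal FPKM, the dotted lines 2-fold, and the red dashed line an equal share of the FPKM totals outside the ribosomal DNA. Most points with reads in both libraries lie under the solid line and around the dashed line, and the 2 rows of points at the edges are transcripts with reads in 1 library.

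The way the transcripts were listed sets part of these counts. Apart from 5 transcripts with 0 reads in all 3 libraries, every listed transcript reached 1.51 FPKM or more in some library. A transcript without Input reads thus reached this level in a precipitate if it had reads at all, and the 33 transcripts with reads in IgG alone had at least 1.51 FPKM there. Likewise, the 39 transcripts with the highest Input FPKM among those with reads in both had a median ratio of 0.179, the 39 in the middle 0.255, and the 38 with the lowest Input FPKM (up to 3.05 FPKM) 0.915. A transcript low in all 3 libraries was not listed, so this order cannot be told apart from the effect of the listing.

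The direction of the comparison depended on the scale. The FPKM total over all 334 transcripts was 156567 in Input and 25502 in IgG, and without the ribosomal DNA rows it was 16444 and 3062. Setting these totals equal multiplied every IgG value by 6.14 over all transcripts and by 5.37 without ribosomal DNA. With equal totals over all transcripts, 84 transcripts (26.2%) had a ratio above 2 and 192 (59.8%) a ratio below 0.5, and without ribosomal DNA the numbers were 80 (24.9%) and 196 (61.1%). The share of calls that were higher went from 14.5% on deposited FPKM to 30.4% and 29.0%.

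Among the 116 transcripts with reads in both libraries, the median ratio became 1.62 with equal totals over all transcripts and 1.42 without ribosomal DNA, so that 72 and 67 of them were higher in IgG. Leaving out 7SK as well gave a factor of 3.37, a median of 0.888, and 63 transcripts (19.6%) above 2-fold and 213 (66.4%) below 0.5-fold. The IgG total behind this factor was 1173 FPKM. Of it, 3 transcripts without Input reads, described below, held 529, 108 and 58.0 FPKM, so these values depend on them. All 43 transcripts above 2-fold on deposited FPKM were above 2-fold on the first 2 equal-total scales too. Of the 253 below 0.5-fold, 192 were below 0.5-fold on all 3 scales, but the transcripts with 0 IgG reads made up 172 of these calls on every scale. The counting interval lay below 1 for 211 lower calls in FPKM, and for 35 with equal totals without ribosomal DNA. For most transcripts without IgG reads, a loss relative to the rest of the precipitate was therefore not detectable at this depth.

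**Figure D2:**
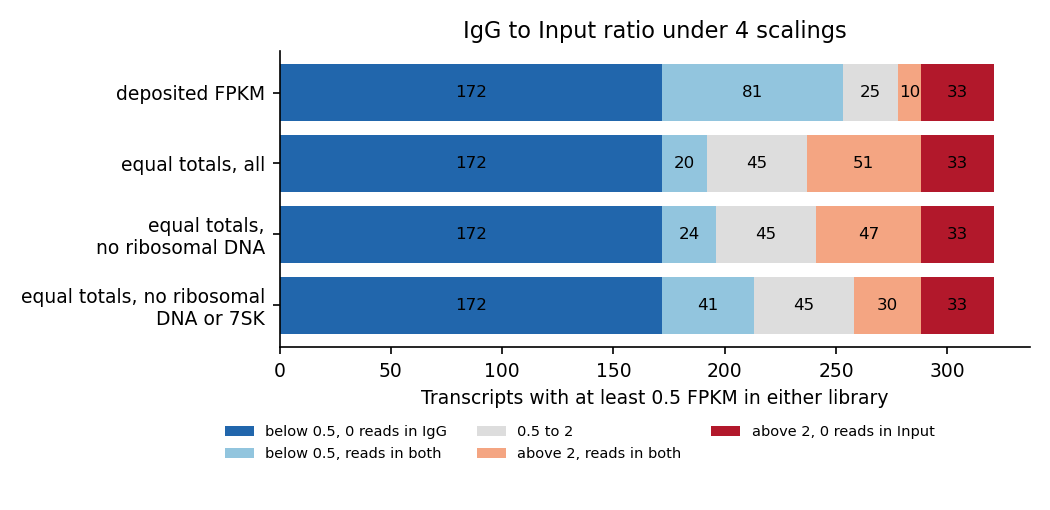
Bars divide the 321 transcripts with at least 0.5 FPKM in either library by their IgG to Input ratio under 4 scalings, with calls that rest on 0 reads in 1 library drawn apart. The number of transcripts above 2 with reads in both libraries went from 10 on deposited FPKM to 51 with equal totals, and the calls at 0 reads were the same 172 and 33 on each scale.

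Detection in IgG followed the number of Input reads. Outside the ribosomal DNA, IgG reads were found for 17 of 94 transcripts with 5 to 9 Input reads, 28 of 87 with 10 to 19, 33 of 54 with 20 to 49, 15 of 19 with 50 to 99 and 15 of 19 with 100 or more. The 16 transcripts with 1 to 4 Input reads had IgG reads in 8 cases, and 12 of the 16 were under 1.51 FPKM in Input and reached that level in a precipitate only. Of 179 transcripts with at least 10 Input reads, 91 had IgG reads and 88 had none. Input FPKM had a median of 4.68 in the former and 3.28 in the latter, and Input reads per FPKM, which grow with transcript length, a median of 5.80 and 5.05. A database name was carried by 73 of the 91 and by 53 of the 88. The coding potential scores were close, with a median CPC score of -1.02 and -0.985 and a median CPAT coding probability of 0.0363 and 0.0474.

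The snoRNA host genes spanned a wide range of recovery. Their 21 listed transcripts belong to 11 genes and all passed the minimum. On deposited FPKM 14 were below 0.5-fold, 1 was above 2-fold and 6 lay between, against 251, 42 and 25 of the 318 transcripts outside ribosomal DNA. With equal totals without ribosomal DNA, 10 were below 0.5-fold, 8 above 2-fold and 3 between, beside 194, 79 and 45 of the 318, and 5 of the 10 had 0 IgG reads, which rescaling cannot move. Of 19 host transcripts with at least 10 Input reads 15 had IgG reads, beside 91 of all 179. Input levels were not matched in this comparison, and detection rose with Input reads. The list held 2093 Input, 590 IgG and 140 Flag-FAK reads.

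The starts of host genes that came down well and poorly are shown together, because a pyrimidine tract at the start is the known common feature of this gene class. They are the 50 bases from the annotated RefSeq start (GRCh38.p14), for hosts with a listed end within 100 bases of it. Capitals mark the unbroken run of C and T from the first base.
SNHG5 (chr6:85678684-85678733, minus strand): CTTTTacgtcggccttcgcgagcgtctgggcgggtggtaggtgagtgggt
SNHG1 (chr11:62855836-62855885, minus strand): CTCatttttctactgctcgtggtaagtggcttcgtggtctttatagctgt
SNHG19 (chr16:2155309-2155358, minus strand): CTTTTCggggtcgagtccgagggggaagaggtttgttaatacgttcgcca
SNHG8 (chr4:118278762-118278811, plus strand): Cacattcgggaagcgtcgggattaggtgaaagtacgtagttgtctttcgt
SNHG12 (chr1:28581824-28581873, minus strand): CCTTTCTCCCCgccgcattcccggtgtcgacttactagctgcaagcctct
SNHG7 (chr9:136728135-136728184, minus strand): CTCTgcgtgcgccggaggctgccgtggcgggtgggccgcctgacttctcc
A run of at least 4 bases opened SNHG5, SNHG19, SNHG12 and SNHG7, and a run of 4 or more was found at the start of 7.19% of the 35116 annotated starts in the same table. SNHG1 had a run of 3 and SNHG8 a run of 1. SNHG30, not printed, had none. SNHG5 and SNHG7 both open with such a run, and their IgG to Input ratios, given below, were 0.698 and 0.0422. GAS5 and SNHG29 have annotated starts over 100 bases from their listed transcripts and SNHG6 and SNHG15 were not matched.

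GAS5, a growth-arrest lncRNA with snoRNAs in its introns, was the most abundant host in both libraries. Its 4 transcripts summed to 758 reads and 131 FPKM in Input, 314 reads and 58.7 FPKM in IgG, and 46 reads and 8.16 FPKM in Flag-FAK. The IgG to Input ratio was 0.449 (0.393 to 0.513) on deposited FPKM and 2.41 (2.11 to 2.76) with equal totals without ribosomal DNA. Among its transcripts, the reads were 239 in Input and 161 in IgG for the first, 177 and 82 for the second, 29 and 19 for the third, and 313 and 52 for the fourth. The first kept a ratio of 0.737 (0.599 to 0.903) and the fourth a ratio of 0.179 (0.131 to 0.241), so these intervals do not overlap. How reads were divided between overlapping transcripts is not given in the sources used here.

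SNHG6 was the only host gene whose ratio was above 1 on deposited FPKM. It had 88 Input, 114 IgG and 8 Flag-FAK reads, and its ratio was 1.46 (1.10 to 1.95). SNHG5 had 55, 36 and 0 reads and a ratio of 0.698 (0.445 to 1.08), an interval that includes 1. SNHG1, a host of several C/D box snoRNAs, had 133, 67 and 17 reads and a ratio of 0.481 (0.353 to 0.649). One of its transcripts had 31 Input and 35 IgG reads, and another 25 and 2. SNHG19, the host of SNORD60, had 68, 17 and 0 reads and a ratio of 0.273 (0.150 to 0.470).

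Of the other host genes, all but SNHG29 lay below Input by more than their counting error. SNHG7 had 628 Input, 25 IgG and 44 Flag-FAK reads, which gave a ratio of 0.0422 (0.0271 to 0.0630). SNHG7:1 (485 Input reads) kept all 25 of the IgG reads, and NONHSAT135575.2 with the same ends (143 Input reads) had 0, at least 44.3-fold lower. As for GAS5, how reads were divided between these overlapping transcripts is not given. SNHG15 had 167, 8 and 5 reads and a ratio of 0.0460 (0.0195 to 0.0927). SNHG12 had 136, 9 and 20 reads and a ratio of 0.0599 (0.0268 to 0.117). SNHG8 had 41 Input reads and none in either precipitate, at least 12.7-fold lower in IgG than in Input, and SNHG30 had 15 and none, at least 4.65-fold lower in IgG. SNHG29 had 4 Input reads and none in IgG, and its two-sided interval included 1. With equal totals without ribosomal DNA, SNHG7 (0.227, 0.146 to 0.338), SNHG15 (0.247, 0.105 to 0.498) and SNHG12 (0.321, 0.144 to 0.628) still had intervals below 1 and SNHG8 was at least 2.36-fold lower, while GAS5, SNHG1, SNHG5 and SNHG6 had intervals above 1.

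Among the 10 listed transcripts of small structural RNA loci, 4 had reads in both Input and IgG, and 2 had reads in IgG but not in Input. A transcript over the U4 genes RNU4-1 and RNU4-2 had 59 Flag-FAK reads and 0 in Input and IgG. RN7SK, listed as lnc-FBXO9-1:1 on the plus strand at chr6:52941639-52995944, had 36842 Input, 5108 IgG and 2913 Flag-FAK reads, which is 12493 and 1889 FPKM in Input and IgG. Its ratio of 0.151 (0.147 to 0.156) became 0.812 (0.788 to 0.836) with equal totals without ribosomal DNA. Outside ribosomal DNA it took 72.8% of reads in Input (exact interval 72.4% to 73.2%), 58.2% in IgG (57.2% to 59.2%) and 68.3% in Flag-FAK.

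At the SNORD3 locus of chromosome 17, which codes for U3, the plus-strand transcript had 1536 Input, 387 IgG and 191 Flag-FAK reads. Its ratio was 0.275 (0.245 to 0.307) on deposited FPKM, and 1.47 (1.32 to 1.65) with equal totals without ribosomal DNA. With 7SK left out of the totals as well, its log2 ratio was -0.11, slightly below Input. The 2 minus-strand transcripts of the locus had 87 and 199 reads in Input and 19 and 56 in IgG, with ratios of 0.234 (0.135 to 0.388) and 0.307 (0.224 to 0.415). All 3 ratios on deposited FPKM were therefore above that of RN7SK. The plus-strand transcript and the second of the minus-strand ones had intervals that do not overlap its interval.

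A locus over RNU1-4, a gene of the U1 spliceosomal RNA, and over several other genes showed the opposite pattern. Which of these genes its reads came from was not tested. The transcript on the plus strand at chr1:16740523-16896138 had 267 reads in IgG, 115 in Flag-FAK and 0 in Input, so that IgG was at least 95.8-fold higher. A transcript over the U1 pseudogenes RNU1-27P and RNU1-28P, on the plus strand at chr14:34546721-34556375, had 0, 143 and 78 reads and was at least 51.3-fold higher. Of the 10 transcripts on this list, 6 passed the minimum, 4 below 0.5-fold and 2 above 2-fold on deposited FPKM. With equal totals without ribosomal DNA the 4 lay between and the 2 stayed above.

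A transcript without a database name on the minus strand at chr20:29299450-29299804, over the pseudogene LOC110467538, had the most IgG reads outside ribosomal DNA and 7SK. It had 0 Input, 1086 IgG and 345 Flag-FAK reads, and was at least 390-fold higher in IgG than in Input. Together with the 2 transcripts over U1 genes or pseudogenes it held 1496 reads, 40.8% of the IgG reads left without ribosomal DNA and 7SK. Their share of such reads in Flag-FAK was 39.8%. All 3 had 0 Input reads, and they held most of the 1783 IgG reads outside ribosomal DNA on transcripts without Input reads. The plus-strand ribosomal DNA row, described next, likewise had 0 Input reads and reads in both precipitates. Whether Input reads of the same RNAs were assigned to other rows was not tested, so the folds of these 3 transcripts are folds of single rows.

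The ribosomal DNA rows changed strand between Input and IgG. The transcript on the plus strand (chr21:8209614-8255663) had 0 Input, 100554 IgG and 44394 Flag-FAK reads. The minus-strand transcript at chr21:8218527-8446613 had 1877252, 327 and 105 reads, and the one at chr21:8218527-8257974 had 128978, 0 and 0. The plus strand thus took 0% of these reads in Input and 99.7% in IgG. The 3 rows summed to 140124 FPKM in Input and 22440 in IgG, a ratio of 0.160 beside 0.186 for all other transcripts. In reads their ratio was lower, 0.0503, and they held 39.6 reads per other read in Input against 11.5 in IgG. FPKM per read differs between the rows, so the FPKM ratio does not show that ribosomal DNA was kept like the rest. The folds of single rows are therefore folds of the row a read was assigned to, and those rows are left out of the rankings.

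Among other transcripts, NONHSAT088493.2 stood furthest below Input. It lies on the plus strand at chr3:15680273-15738746, over BTD (biotinidase), ANKRD28 and the 7SL pseudogene RN7SL4P, with 4276 Input reads against 0 in IgG and 0 in Flag-FAK. The IgG value was at least 1324-fold lower on deposited FPKM and at least 247-fold lower with equal totals without ribosomal DNA. It held the second-highest Input count outside ribosomal DNA, after RN7SK. Which of these genes the reads came from was not tested.

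Several lncRNAs abundant in Input had few or no IgG reads. Of 19 transcripts with at least 100 Input reads outside ribosomal DNA, 4 had 0 IgG reads and the other 15 had ratios from 0.0117 to 0.737. At SLC9A3-OT1, which overlaps the sodium-proton exchanger gene SLC9A3, the 2 transcripts listed as lnc-CTD-2228K2.5.1-1:1 had 164 and 116 reads in Input and none in IgG or Flag-FAK. Summed, they were at least 86.7-fold lower in IgG, and at least 16.1-fold lower with equal totals without ribosomal DNA. On chromosome 1, an unnamed transcript over a cluster of tRNA genes had 30 reads in Input and 0 in IgG (at least 9.29-fold lower), and one over the ribosomal protein pseudogene RPL7P9 had 57 and 0 (at least 17.7-fold lower).

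The list named cytoplasmic lncRNAs had few IgG reads. Its name does not describe every member, because LINC-PINT is known as a nuclear lncRNA. All 9 of its listed transcripts, from 7 loci, were below 0.5-fold on deposited FPKM, beside 78.8% of all transcripts tested. With equal totals without ribosomal DNA 7 were below it, beside 61.1%, but 4 of the 7 had 0 IgG reads and cannot move with the scale. Of the 5 with IgG reads, 3 were below 0.5-fold on that scale, beside 24 of all 116 transcripts with reads in both libraries. The list held 774 Input, 34 IgG and 43 Flag-FAK reads in all. Its ratio of summed FPKM was 0.0340 beside 0.186 for all transcripts outside ribosomal DNA. In the latter sums, RN7SK held 12493 of 16444 FPKM in Input and 1889 of 3062 in IgG. Input levels were not matched. The list holds cancer lncRNAs picked with earlier results of these data known, so its position is a description.

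MIR4435-2HG, a lncRNA reported in many tumours, had 194 reads in Input and 3 in each precipitate, a ratio of 0.0117 (0.00340 to 0.0494). PICSAR, a lncRNA first described in squamous carcinoma, had 275 Input, 11 IgG and 18 Flag-FAK reads and a ratio of 0.0400 (0.0197 to 0.0726). LITATS1 had 61, 0 and 2 reads, and the 2 CYTOR transcripts had 17 and 7 Input reads and none in either precipitate. LINC-PINT had 60, 7 and 0 reads, a ratio of 0.111 (0.0426 to 0.242). VPS9D1-AS1, the antisense lncRNA that the study calls FAISL, had transcripts with 106, 32 and 22 reads in Input and 9, 4 and 0 in IgG, and their ratios with reads in both were 0.0893 (0.0397 to 0.176) and 0.129 (0.0346 to 0.379). With equal totals without ribosomal DNA, MIR4435-2HG (0.0626, 0.0183 to 0.265) and PICSAR (0.215, 0.106 to 0.390) had intervals below 1, as did the first 2 VPS9D1-AS1 transcripts summed (0.543, 0.282 to 0.960), which lie at 1 locus. The intervals of LINC-PINT (0.594, 0.229 to 1.30) and of the third VPS9D1-AS1 transcript, without IgG reads, included 1. The nuclear-retained list had 1 listed transcript, MIR22HG:2, with 7 reads in Input and 2 in IgG, a ratio of 0.299 (0.0312 to 1.62).

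Some lncRNAs came down at the Input level or above it, and their number depended on the scale. Of the 116 transcripts with reads in both libraries, 22 had a ratio above 1 on deposited FPKM and 67 with equal totals without ribosomal DNA. On deposited FPKM, 33 transcripts outside ribosomal DNA had at least 10 reads in both libraries, with a median ratio of 0.482. Of these, 17 had a ratio below 0.5, 15 lay within 2-fold and 1 was above 2. The interval lay below 1 for 20, included 1 for 12 and lay above 1 for 1. The 7 with a ratio above 1, named here after their values were seen where the rule for named transcripts did not reach them, were SNHG6:9, a SNHG1 transcript, LINC00998:1, CRNDE:8, NONHSAT116016.2, MIR4458HG:3 and a transcript at FAM239A.

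CRNDE, a lncRNA raised in colorectal and other tumours, had 31 Input, 39 IgG and 0 Flag-FAK reads, and a ratio of 1.35 (0.818 to 2.23). LINC00998, at the gene of the small membrane protein SMIM30, had 45, 44 and 0 reads and a ratio of 1.06 (0.687 to 1.65). MIR4458HG had 20, 32 and 0 reads and a ratio of 1.77 (0.982 to 3.27). Each of these intervals includes 1, so a difference from Input was not detectable in FPKM. With equal totals without ribosomal DNA the call changed, and the ratios were 7.23 (4.39 to 11.98) for CRNDE, 5.72 (3.69 to 8.86) for LINC00998 and 9.51 (5.27 to 17.5) for MIR4458HG. The transcript at FAM239A, on chromosome X, had 13, 32 and 13 reads and a ratio of 2.69 (1.37 to 5.58). It reached the 1.51 FPKM of listed transcripts in IgG only (3.58 FPKM), with 1.33 in Input and 1.44 in Flag-FAK. Its direction therefore cannot be told apart from the effect of the listing.

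At LINC00473, a cAMP-responsive lncRNA on chromosome 6, the 3 listed transcripts differed. LINC00473:1 had 7 Input and 28 IgG reads, NONHSAT116016.2 had 18 and 27, and LINC00473:3 had 40 and 2. The first was 4.73-fold higher (2.02 to 12.8), and the locus together had 65 and 57 reads, a ratio of 0.827 (0.569 to 1.20). The same was seen on the strand opposite BCAR3, where a NONHSAT004543.2 transcript had 0 Input and 15 IgG reads, the other two had 49 and 54 in Input and 1 and 0 in IgG, and the locus had a ratio of 0.275 (0.151 to 0.468). A locus on chromosome 2 (chr2:32916229-32916604, minus strand, no RefSeq gene) had 6 overlapping transcripts, 2 of them with 46 and 32 IgG reads and none in Input. Its sum was 31 reads in Input and 88 in IgG, a ratio of 3.24 (2.13 to 5.05). Single transcripts of a locus thus overstated or turned the direction of the locus, and 6 of the 33 transcripts without Input reads lay at loci that had them.

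Outside ribosomal DNA, the 42 transcripts above 2-fold had between 4 and 1086 IgG reads with a median of 7, and 29 of them had fewer than 10. Of the 42, 32 had no Input reads, and 6 had reads in Flag-FAK. HSD17B12, a gene of fatty acid elongation, holds NONHSAT159070.1, which had 32 IgG reads and none in Input or Flag-FAK (at least 11.5-fold higher). A transcript of MIR100HG, the host of miR-100 and let-7a-2, had 0, 13 and 0 reads (at least 4.66-fold higher), and OTUD6B-AS1:1 had 0, 11 and 0 (at least 3.95-fold higher). Without reads in Input or Flag-FAK, these transcripts could be listed through IgG alone, so their direction was fixed by the listing. The lncRNAs lnc-ADARB1-4:2 on chromosome 21, with 3 reads in Input and 9 in IgG at one of its 2 listed positions, and NONHSAT150619.1 at DISP1, also with 3 and 9, had ratios of 3.13 (0.806 to 18.5) and 4.24 (0.806 to 18.5) with intervals that include 1. Their Input values of 1.09 and 0.510 FPKM were under 1.51, with 0 in Flag-FAK, so both rows were listed through IgG alone. The other listed position of lnc-ADARB1-4:2 had more reads, 69 in Input and 25 in IgG, and lay below Input with a ratio of 0.393 (0.238 to 0.629).

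Antisense lncRNAs were spread over the whole range. Of 41 listed, 32 were below 0.5-fold, 8 above 2-fold and 1 between on deposited FPKM, and 23, 12 and 6 with equal totals without ribosomal DNA. Over all 318 transcripts outside ribosomal DNA these numbers were 251, 42 and 25, and 194, 79 and 45, so the share of lower calls on FPKM was close to that of all transcripts. IgG reads were found for 14 of 22 with at least 10 Input reads, beside 91 of 179 with Input levels not matched. Another 5 had reads in IgG but not in Input. MAPKAPK5-AS1 had 26 reads in Input and 1 in IgG (ratio 0.00755, 0.00101 to 0.252), BSG-AS1 26 and 2 (0.0846, 0.00952 to 0.331), and THUMPD3-AS1:16 17 and 0. The first of these ratios is less exact than its read number, because over 8 transcripts with 1 IgG read and at least 5 Input reads the FPKM per read in IgG was 0.150 to 1.02 times that in Input (median 0.774). With 2 to 4 IgG reads (37 transcripts) it was 0.573 to 1.16 times (median 0.973). At the other end, MKLN1-AS had 8 Input and 17 IgG reads, a ratio of 2.25 (0.922 to 6.03). MMP24-AS1:2 lay between these ends, with 47 and 18 reads and a ratio of 0.419 (0.229 to 0.735). The list includes the 2 minus-strand transcripts of the SNORD3 locus, which overlap GRAPL-AS1.

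Loci over pseudogenes, 66 listed and 62 over the minimum, had 47 below 0.5-fold, 11 above 2-fold and 4 between, close to the shares of the 256 transcripts without a pseudogene (204, 31 and 21). IgG reads were found for 14 of 30 such transcripts with at least 10 Input reads, beside 77 of 149 without a pseudogene. Transcripts over a small RNA gene had IgG reads in 22 of 30 cases with at least 10 Input reads, and those without one in 69 of 149. For transcripts with a database name the numbers were 73 of 126, and for those with an assembly identifier only 18 of 53. Overlap of a protein-coding gene (44 of 88, against 47 of 91 without) and strand (30 of 56 on plus, 61 of 123 on minus) showed closer shares. These classes overlap, and their Input levels were not matched.

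Flag-FAK values stand beside IgG above without a comparison of the 2 ratios, since both precipitates would share the Input library. Of the 117 transcripts with reads in Input and IgG, 41 had Flag-FAK reads, as did 17 of the 174 with reads in Input alone and 4 of the 33 with reads in IgG alone. Outside ribosomal DNA, 148 transcripts were detected in IgG and 65 in Flag-FAK, at 8777 and 4264 reads, so that a count of 0 allows up to 0.0342% of those reads in IgG and 0.0704% in Flag-FAK.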

How the data were processed

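The files hold 1 library each of Input, IgG and Flag-FAK precipitate, grouped by the labels. The authors deposited, per library, FPKM values and whole-number read counts of the same 334 lncRNA transcripts over 7007 lines (1 per predicted target gene), and repeated lines, which held identical values, were used 1 time. The deposited tables also give coding potential scores (CPC, CNCI) and a CPAT coding probability as a fraction, computed by the authors. The submitters' processing notes name StringTie and GRCh38, and the aligner, the use of strand in counting and the total behind FPKM are not given in the sources used here. Library preparation is labelled as a dual-mode mRNA kit after Trizol extraction of RNA.

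The measure was log2 of (IgG + 0.1) over (Input + 0.1) in FPKM, with at least 0.5 FPKM in either library for counts above 2-fold or below 0.5-fold. Ratios without the added value were given with exact 95% intervals (Clopper-Pearson, scipy) times the FPKM per read of IgG over Input, which was computed per transcript from 5 reads a library and else taken as the median over transcripts. Bounds against 0 reads used 3 reads per library. No test was made, with 1 library per group, and no SD or p-value exists. IgG FPKM were also multiplied to the Input total over all transcripts, without transcripts on chromosome 21 from 8200000 to 8450000, and without these and RN7SK.

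Named were the detected transcripts of the gene lists, the 12 highest and 12 lowest ratios with at least 10 reads over both libraries, the 10 transcripts with most reads in each library and the ribosomal DNA rows (94 transcripts). The lists were snoRNA hosts, nuclear-retained, cytoplasmic, antisense and small structural RNAs, ribosomal DNA and pseudogene loci. The members, lists and comparisons were chosen with earlier results of these data known. Gene names were taken from database names or from overlap with RefSeq genes (GRCh38.p14), the build the notes name, and host gene starts from RefSeq. The functions were tested on simulated data. Scripts ran in Python 3.11.15 with scipy 1.17.1, pandas 2.3.3, matplotlib 3.10.9 and numpy 2.4.6. Alternatives were scalings, added values, minimum levels, sums over loci and stricter calls.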

Additional observations from a re-analysis of the deposited data

How the results depend on the processing

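No paired analysis was possible because no condition has more than 1 library, and leaving out a library would leave no comparison. The 43 higher transcripts became 84 with equal totals over all transcripts, 80 without ribosomal DNA, 10 with at least 0.5 FPKM required in Input, 10 where both libraries had to reach 0.1 FPKM, 18 from 10 reads over both libraries on and 21 with the counting interval beyond 1. The 253 lower ones became 77 and 165 under the same minimum of 0.1 FPKM and of 10 reads. The median log2 ratio over all 321 transcripts (-4.36) rests on transcripts at 0 in IgG and moved to -7.56 and -1.67 with 0.01 and 1 FPKM added, to -1.82 where both libraries had 0.1 FPKM or more, and to -3.84 where 10 reads were required. That over transcripts with reads in both (-1.87) turned to 0.69 with equal totals over all transcripts and 0.50 without ribosomal DNA, was -0.17 without 7SK as well and -1.33 with 1 FPKM added. The 174 transcripts with Input reads and none in IgG were 89 at 10 or more Input reads. The other alternatives kept these values within 1.5 times (counts) or 0.1 (log2).

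Of 87 named transcripts past 2-fold, 14 changed sign with equal totals over all transcripts, 12 without ribosomal DNA, 7 without 7SK as well, and 2 when summed over loci. Those whose counting interval also lay beyond 1 are given here with log2 values in the order of the scalings. They are SNHG19 (0.74 and 0.55), the SNORD3 plus-strand transcript (0.75 and 0.56), its minus-strand ones (0.52 and 0.33, and 0.91, 0.72 and 0.048), MMP24-AS1:2 (1.35, 1.16 and 0.49), ZSCAN16-AS1:2 (0.27 and 0.085), the fourth GAS5 transcript (0.14), the transcript at H2AZ2 (0.19) and a SNHG1 transcript (1.35, 1.16 and 0.49). Summed over loci, the BCAR3 antisense transcript went to -1.82 and LINC00473:1 to -0.27. The list medians turned to 0.86, 0.67 and 0.011 for nuclear-retained lncRNAs (1 transcript), to 0.83 and 0.64 for small structural RNAs, and to 2.63 for ribosomal DNA summed over loci. The cause of each change of direction is the scale factor or the sum itself. Depth limits the rescaled ratios, since 3 IgG reads allowed by a count of 0 weigh more after rescaling.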
